A study of Mus musculus with 33 samples.

Results

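The 9 genes described here are Cdkn1a, Mdm2, Ccng1, Phlda3, Bbc3, Bax and Trp53inp1, which are textbook targets of the transcription factor p53, and Cdkn2a and Cdkn2b, cell cycle inhibitors known to rise when cells are kept in culture. They were chosen by gene symbol with earlier results of these data known, as were all gene lists below. Shares over all genes set beside their counts are therefore a description. They are 9 of the 47729 genes counted, and all 9 were among the 18150 genes abundant enough to test. RNA was sequenced from C57BL/6J mouse retinal progenitor cells, taken from the retina at embryonic day 14, in 33 libraries that form 11 groups of 3. At day 0 there were untreated cells, cells primed towards cones and cells primed towards rods. Cone and rod cultures followed at days 5, 12, 21 and 35. Per the labels, every cone group received COCO protein, which binds and blocks BMP, Wnt and TGF-beta ligands outside the cell, and every rod group received taurine and retinoic acid. Untreated cells were sampled at day 0 only, so days in culture and exposure to these factors cannot be told apart within a culture. How long the factors stayed in the medium, and whether replicates came from separate cultures or animals, is not given in the sources used here, so p-values measure the spread between these libraries, which may be technical.

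p53 is held at a low level in most cells by Mdm2, a ubiquitin ligase that marks it for destruction, and stress such as DNA damage releases it. It then binds a response element in the promoters of its targets. Cdkn1a encodes p21, an inhibitor of cyclin-dependent kinases that halts the cell cycle. Mdm2 is itself a target and closes the loop. Bbc3 (Puma) and Bax are pro-apoptotic members of the Bcl-2 family, Phlda3 restrains Akt, Ccng1 encodes cyclin G1 and Trp53inp1 encodes a stress-induced nuclear protein. Cdkn2a and Cdkn2b lie side by side and encode p16Ink4a, p19Arf and p15Ink4b. The Ink4 proteins block the kinases that inactivate Rb, and p19Arf blocks Mdm2. In dividing progenitors the locus is kept silent by Polycomb proteins, and its loss of silencing in culture is a usual mark of senescence.

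The p53 response element, a pair of half-sites of 10 bases each, was searched on both strands, with no spacer and with up to 2 mismatches over its 20 bases. The windows searched were RefSeq promoters on GRCm38.p6, from 250 bases before to 50 bases after a gene's start. Of the 8 genes with a promoter in that table, 2 held a match, in 2 of their 12 windows, against 0.798% of all 32851 windows. Both matches had 1 mismatch, which 0.0883% of all windows reach with 1 or none. They are shown because they are the p53 motif itself, in the promoters of 2 genes that rose in both cultures below. Capitals mark the match and lower case gives 20 bases on either side, from 5′ to 3′ on the gene's strand.
Cdkn1a: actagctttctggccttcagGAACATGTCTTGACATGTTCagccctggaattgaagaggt
Ccng1: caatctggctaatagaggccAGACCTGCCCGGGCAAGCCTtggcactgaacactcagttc
The first lies at chr17:29090908-29090967 on the plus strand, with the match from -51 to -32 relative to a start RefSeq gives (counted as 0). Cdkn1a had 2 windows, for different starts, and only 1 of them held a match. The second lies at chr11:40755442-40755501 on the minus strand, with the match from -195 to -176 on the same count. These RefSeq starts are not the GENCODE gene bounds given below. No binding was measured here, so the matches are a description of the sequence.

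The libraries held 7511837 to 19166442 counts in genes (median 12985662). Levels are in CPM (counts relative to the library's total, as scaled by edgeR), and gene positions are those of GENCODE M21 on GRCm38. A level of 0.174 to 0.407 CPM, depending on the library, stands for 3 counts, up to which a gene with no count may still be present. Among the 11 retinal progenitor markers, all were detected in every day 0 group, and Fgf15 alone was at 0 in cone days 21 and 35 and rod day 21. In rod day 12, replicate 1 was the highest and replicate 2 the lowest library for all 9 genes, and in cone day 21 replicate 1 was the highest for all 9, so results on those days are given below without each library.

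The 3 cell cycle inhibitors started low and rose by day 35 in both cultures, with larger fitted fold changes over primed cells in the cone culture. Cdkn1a, on chromosome 17 from 29090976 to 29100727, was at 4.48, 11.8 and 8.96 CPM in the untreated libraries. The cone primed libraries gave 7.30, 7.11 and 8.07 CPM and the rod primed libraries 6.24, 12.7 and 8.98 CPM. The 3 groups overlapped. At day 5 cone libraries were at 15.6, 8.57 and 9.59 CPM and rod libraries at 8.87, 3.65 and 7.08 CPM. At day 12 they were at 66.5, 59.9 and 86.3 CPM in cone and 40.6, 12.1 and 19.0 CPM in rod. All day 12 cone libraries stood above all rod libraries, and replicate 1 of the rod group stood well above the other two. At day 21 cone libraries reached 110, 79.5 and 92.7 CPM and rod libraries 55.1, 35.7 and 52.4 CPM. Day 35 brought 148, 144 and 123 CPM in cone and 38.0, 59.5 and 71.2 CPM in rod. The cone libraries of day 35 were above those of every other group. Against primed cells, Cdkn1a at day 35 was 18.5-fold higher in the cone culture, a log2 fold change of 4.21 ± 0.40 (SE, adjusted p 9.69e-10). In the rod culture it was 5.99-fold higher (2.58 ± 0.38, adjusted p 1.85e-06). In bulk RNA, more cells of a type with a given level and more RNA per cell cannot be told apart, here and for each gene below.

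Cdkn2a, on chromosome 4 from 89274471 to 89294653, was close to the detection limit at day 0, with 2, 4 and 8 counts in the untreated libraries and 1, 7 and 5 in the cone primed libraries. These counts correspond to group means of 0.355 ± 0.163 and 0.405 ± 0.243 CPM (SD, n = 3). Rod primed libraries had 8, 18 and 18 counts, or 1.09, 1.81 and 1.62 CPM, and in CPM each was above every untreated and cone primed library. Cone libraries of day 5 were at 0.935, 0.426 and 1.39 CPM and those of day 12 at 6.65, 3.34 and 5.80 CPM. Day 21 gave 17.1, 12.3 and 9.77 CPM and day 35 gave 26.4, 22.0 and 19.5 CPM. From day 12 on, each day's cone libraries lay above all those of the day before. Rod libraries of day 5 were at 1.46, 1.64 and 1.32 CPM and those of day 12 at 2.07, 1.16 and 1.73 CPM. Rod day 21 gave 6.41, 5.48 and 5.35 CPM and rod day 35 gave 6.97, 12.5 and 8.72 CPM. The rod libraries of days 0, 5 and 12 overlapped. The rise from primed cells to day 35 was 51.6-fold in the cone culture (log2 fold change 5.69 ± 0.42, adjusted p 7.80e-12) and 6.12-fold in the rod culture (2.61 ± 0.35, adjusted p 5.16e-07). The gene makes p16Ink4a and p19Arf from 2 transcripts, which counts per gene do not separate.

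Cdkn2b, next to it on chromosome 4 from 89306299 to 89311039, was at 0.772 ± 0.0408 CPM in untreated cells (SD, n = 3). It was the one gene of the 9 called in the cone culture by day 5, where libraries were at 4.01, 2.37 and 3.95 CPM against 0.755, 0.728 and 0.419 CPM in cone primed cells (log2 fold change 2.42 ± 0.40, adjusted p 0.0001). Cone libraries were at 20.8, 9.63 and 16.0 CPM at day 12 and at 42.7, 31.4 and 43.6 CPM at day 35. Rod libraries were at 6.50, 2.66 and 4.47 CPM at day 12 and at 17.6, 20.5 and 21.0 CPM at day 35. At day 35 the lowest cone library was above the highest rod library. The fold over primed cells at day 35 was 60.8 in cone (5.93 ± 0.38, adjusted p 6.93e-13) and 18.6 in rod (4.21 ± 0.35, adjusted p 1.80e-10), the largest of the 9 genes in each culture.

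**Figure D1:**
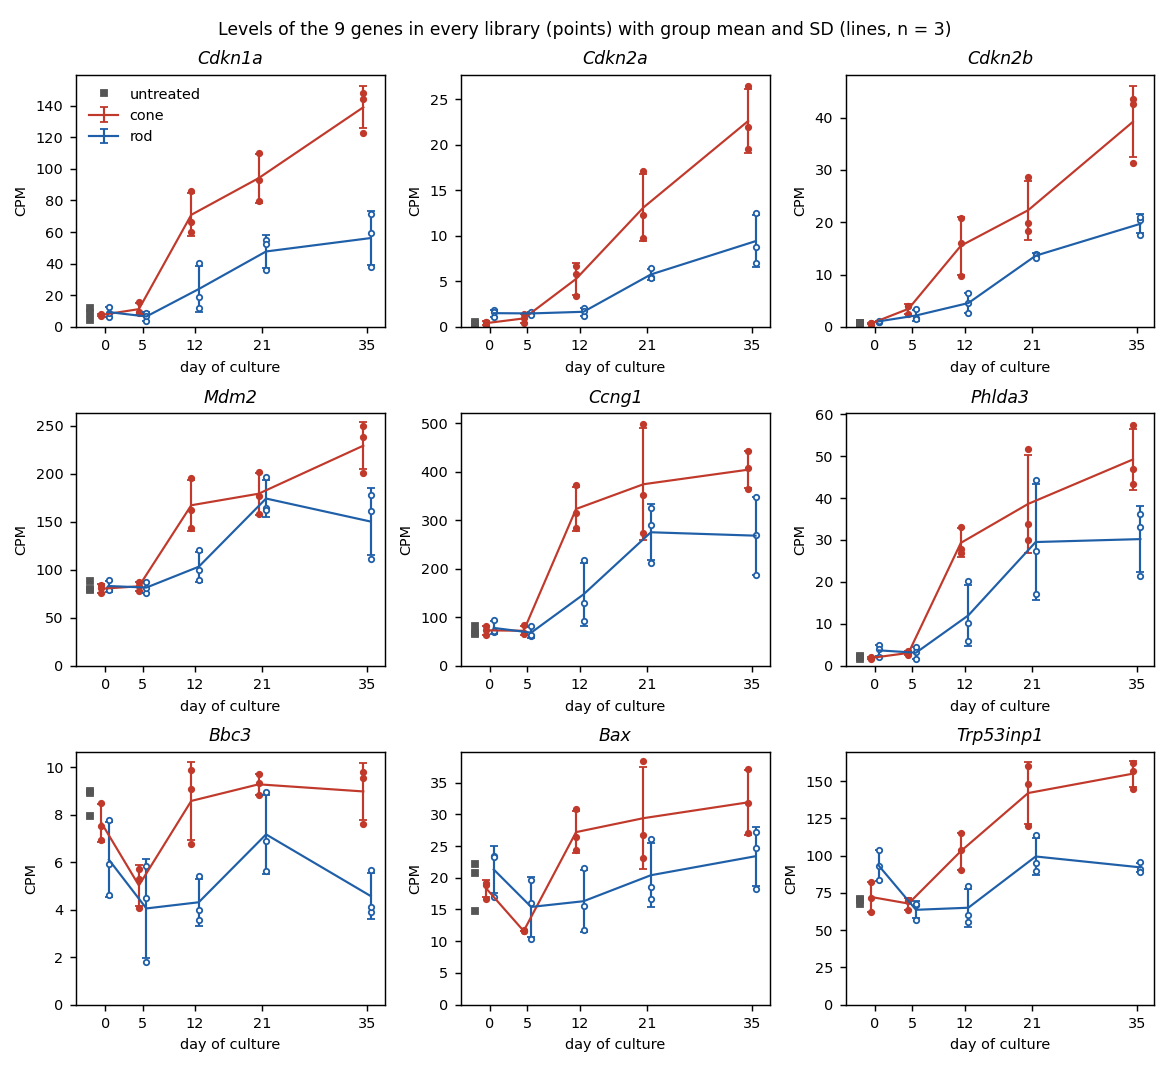
Levels of the 9 genes in CPM (linear axes from 0) against day of culture. Points are libraries, lines join group means with SD bars (n = 3), cone is filled red, rod is open blue and untreated day 0 libraries are grey squares set left of 0. Cdkn1a reached a mean of 139 CPM in cone and 56.2 CPM in rod at day 35, while Bbc3 stayed under 10 CPM throughout.

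Mdm2, Ccng1 and Phlda3 rose in both cultures as well. Mdm2, on chromosome 10 from 117688875 to 117710758, lay between 75.4 and 89.4 CPM in every library of days 0 and 5. At day 12 its level was 162, 143 and 195 CPM in cone and 120, 89.2 and 99.4 CPM in rod. At day 35 it was 238, 249 and 201 CPM in cone and 111, 161 and 178 CPM in rod. The day 12 and day 35 cone libraries were above all rod libraries of their day, whereas at day 21 the cultures overlapped at 158 to 202 CPM and 162 to 196 CPM. Mdm2 at day 35 was 2.86-fold above primed cells in cone (1.52 ± 0.14, adjusted p 1.08e-09) and 1.81-fold in rod (0.86 ± 0.14, adjusted p 1.32e-05).

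Ccng1, on chromosome 11 from 40748552 to 40755311, was the most abundant of the 9 genes per length, at 20.3 CPM per kb of exon in untreated cells and 115 in cone day 35. Its libraries were at 63.8, 73.2 and 81.3 CPM in cone primed cells, 315, 284 and 372 CPM in cone day 12 and 407, 442 and 365 CPM in cone day 35. The rod libraries went from 69.6, 93.2 and 70.8 CPM in primed cells to 218, 92.1 and 130 CPM at day 12 and 187, 269 and 348 CPM at day 35. Each cone library of days 12, 21 and 35 was above every day 0 library, and in rod day 12 replicate 2 lay within the primed range. The rise to day 35 was 5.55-fold in cone (2.47 ± 0.26, adjusted p 6.80e-09) and 3.44-fold in rod (1.78 ± 0.26, adjusted p 1.44e-06).

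Phlda3, on chromosome 1 from 135766119 to 135769136, went from 1.89, 1.54 and 2.10 CPM in cone primed cells to 26.8, 27.9 and 33.2 CPM at day 12 and 57.4, 47.0 and 43.3 CPM at day 35. The rod culture went from 2.17, 4.94 and 3.86 CPM to 20.1, 5.87 and 10.1 CPM at day 12 and 21.3, 33.2 and 36.1 CPM at day 35. At both days the cone libraries were above all rod libraries. At day 35 it was 26.9-fold above primed cells in cone (4.75 ± 0.44, adjusted p 5.91e-10) and 8.11-fold in rod (3.02 ± 0.40, adjusted p 3.87e-07).

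Of the 9 genes, the pro-apoptotic Bbc3 and Bax had the smallest log2 fold changes between cone primed cells and cone day 35. Bbc3, on chromosome 7 from 16308393 to 16318205, had group means between 4.05 and 9.28 CPM across all 11 groups. Cone libraries were at 6.92, 8.49 and 7.54 CPM when primed and 9.81, 9.53 and 7.59 CPM at day 35. Rod libraries were at 4.61, 7.76 and 5.93 CPM when primed and 5.69, 3.88 and 4.13 CPM at day 35. The ranges of day 0 and day 35 overlapped in both cultures, and neither difference passed the test (cone 0.23 ± 0.27, adjusted p 0.498, and rod -0.43 ± 0.28, adjusted p 0.203). Bax, on chromosome 7 from 45461697 to 45466898, had cone libraries at 16.7, 19.2 and 18.9 CPM when primed, 11.6, 11.7 and 11.6 CPM at day 5 and 37.1, 31.8 and 27.0 CPM at day 35. The day 5 libraries were below and the day 35 libraries above all primed ones. The fall to day 5 did not pass (-0.65 ± 0.24, adjusted p 0.0507), and the rise to day 35 was 1.75-fold (0.81 ± 0.24, adjusted p 0.00474). Rod libraries of Bax overlapped between primed cells (17.0, 23.5 and 23.3 CPM) and day 35 (18.3, 24.7 and 27.2 CPM), and the fitted difference was 0.14 ± 0.23 on the log2 scale (adjusted p 0.645).

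Trp53inp1, on chromosome 4 from 11156431 to 11174379, rose in the cone culture and ended at its primed level in the rod culture. Untreated libraries were at 70.2, 70.9 and 67.4 CPM, cone primed at 82.3, 62.4 and 71.8 CPM and rod primed at 92.8, 104 and 83.3 CPM. At day 5 the level was 63.2, 70.5 and 69.7 CPM in cone and 66.7, 67.2 and 56.9 CPM in rod. The rod primed libraries were above all others of days 0 and 5. At day 12 the level was 104, 90.5 and 115 CPM in cone and 79.6, 55.3 and 60.1 CPM in rod, and at day 35 162, 157 and 145 CPM in cone and 91.3, 95.6 and 89.3 CPM in rod. Cone libraries were above all rod libraries on both days. Trp53inp1 fell from rod primed cells to rod day 5 (-0.55 ± 0.13, adjusted p 0.00432) and was lower than primed at day 12 too (-0.52 ± 0.13, adjusted p 0.00221), while at day 35 the difference was -0.02 ± 0.13 (adjusted p 0.906). In the cone culture it was 2.15-fold higher at day 35 (1.10 ± 0.13, adjusted p 6.02e-08).

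Per kb of exon, the order of mean levels in untreated cells was Ccng1 (20.3 CPM per kb), Mdm2 (16.2), Bax (12.2), Trp53inp1 (10.7), Bbc3 (4.05), Cdkn1a (2.37), Phlda3 (1.28), Cdkn2b (0.555) and Cdkn2a (0.303). In cone day 35 it was Ccng1 (115 CPM per kb), Mdm2 (45.1), Cdkn1a (39.0), Phlda3 (31.6), Cdkn2b (28.2), Trp53inp1 (23.9), Bax (20.3), Cdkn2a (19.3) and Bbc3 (4.23). The genes that were least abundant at day 0 had moved to levels near or above those of Bax and Trp53inp1, and Bbc3 became the least abundant. For 8 of the 9 genes cone day 35 had the highest mean of the 11 groups, and Bbc3 had its highest mean, 9.28 CPM, in cone day 21. The share of all genes with their highest mean in cone day 35 was not counted. With groups ranked by mean, the top pair did not overlap for Cdkn1a, Cdkn2a and Cdkn2b. There every cone day 35 library was above every library of the next group, cone day 21, as for 9.54% of all genes. For the other 6 genes the ranges of the top pair overlapped.

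Counted over time, 8 of the 9 genes (all but Bbc3) were called higher in the cone culture at day 35 than in primed cells by edgeR at an adjusted p under 0.05. Of all 18150 genes 57.7% were called in that comparison and 31.1% were called higher. In the rod culture 6 of the 9 were called at day 35, all higher (Cdkn1a, Cdkn2a, Cdkn2b, Mdm2, Ccng1 and Phlda3), where 55.6% of all genes were called and 29.4% were called higher. The median log2 fold change of the 9 genes was 2.47 in cone and 1.78 in rod, against 0.027 and 0.035 over all genes. Both counts were the same without any 1 of the 6 libraries compared. Against primed cells 8 of 9 were called at cone day 12 (48.4% of all genes) and cone day 21 (52.6%), the same 8 genes as at day 35. The call of Bax at day 12 was lost without any of cone primed replicate 1, 2 or 3 or cone day 12 replicate 1 or 3 (adjusted p 0.0734 to 0.172), and at day 21 without cone primed replicate 1 (0.0594) or cone day 21 replicate 1 (0.166). At cone day 5 it was 1 of 9, Cdkn2b (22.3% of all genes), and 2 without cone day 5 replicate 2. In rod cells 1 of 9, the fall of Trp53inp1, was called at day 5 (17.5%), and 2 without rod day 5 replicate 1. At rod day 12 there were 5 of 9 (42.4%), with Cdkn1a, Cdkn2b, Ccng1 and Phlda3 higher and Trp53inp1 lower, and at rod day 21 there were 6 (50.8%), the same 6 as at day 35. Without rod day 12 replicate 1, which was highest for all 9 genes, the day 12 calls of Cdkn1a (0.72, adjusted p 0.107) and Ccng1 (0.50, adjusted p 0.0945) were lost, and the count was 4.

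**Figure D2:**
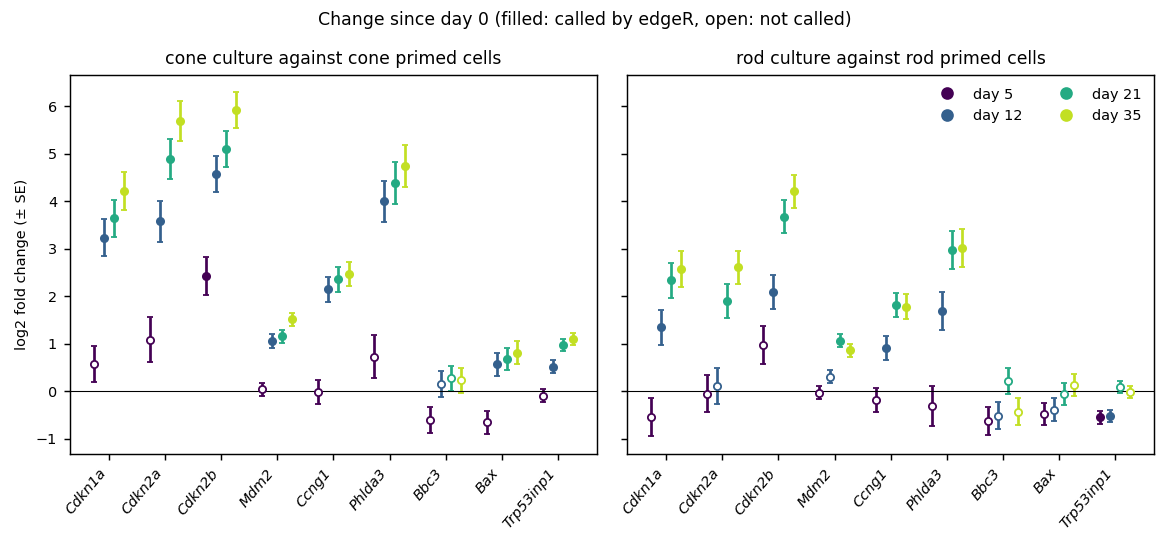
Log2 fold change (± SE, edgeR) of each gene at days 5, 12, 21 and 35 against the primed cells of the same culture, cone at left and rod at right. Filled points were called at an adjusted p under 0.05 and open points were not. Cdkn2b at day 35 is the highest point in both panels, at 5.93 and 4.21, and Bbc3 is open throughout.

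Between consecutive days, most calls in the cone culture fell in the step from day 5 to day 12, and the calls of a rise in the rod culture in the steps from day 5 to day 21. From cone day 5 to day 12 all 9 genes were called higher (43.2% of all genes were called), led by Phlda3 at 9.65-fold (3.27 ± 0.39, adjusted p 2.50e-07) and Cdkn1a at 6.32-fold (2.66 ± 0.37, adjusted p 1.89e-06). For Cdkn2a and Cdkn2b this step was 2.49 and 2.16 on the log2 scale, out of 5.69 and 5.93 from primed cells to day 35. Bbc3 passed at 0.77 ± 0.27 (adjusted p 0.0233), and its call was lost without cone day 12 replicate 1 or 3 or cone day 5 replicate 1 or 3 (adjusted p 0.0628 to 0.138). From rod day 5 to day 12 there were 4 calls, all higher (18.3% of all genes), in Cdkn1a (1.89 ± 0.38), Cdkn2b (1.13 ± 0.32), Ccng1 (1.11 ± 0.25) and Phlda3 (2.00 ± 0.40). From rod day 12 to day 21 there were 6, all higher (11.2%), in Cdkn2a (1.79 ± 0.33), Cdkn2b (1.58 ± 0.29), Mdm2 (0.76 ± 0.14), Ccng1 (0.91 ± 0.25), Phlda3 (1.30 ± 0.35) and Trp53inp1 (0.61 ± 0.13). From cone day 12 to day 21 only 2 were called (3.36%), Cdkn2a at 1.31 ± 0.31 and Trp53inp1 at 0.46 ± 0.13. From day 21 to day 35 edgeR called 0 of 9 in cone (0.915% of all genes) and 0 of 9 in rod (1.54%). At an unadjusted p under 0.05 these last steps had 3 and 2 genes, DESeq2 called 0 in both, and voom called 4 in cone and 0 in rod.

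These step counts depended on the rod day 12 libraries and on the model. When only the 6 libraries compared were fitted, the 4 calls of rod day 5 to 12, the 6 of rod day 12 to 21 and the 2 of cone day 12 to 21 all went to 0, with adjusted p from 0.0779 to 0.209, 0.0811 to 0.258, and 0.0825 to 0.181. The log2 fold changes were close to those above, such as 1.86 for Cdkn1a and 1.07 for Cdkn2b in the first step. Without rod day 12 replicate 1 the first count was 2 and the second was 8. Without rod day 12 replicate 2, which was lowest for all 9 genes, they were 5 and 4. The cone step from day 12 to 21 had 0 calls without cone day 12 replicate 2, cone day 12 replicate 3 or cone day 21 replicate 1, and 1 without cone day 12 replicate 1 or cone day 21 replicate 3.

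Cone and rod cultures were compared on each day to ask how the 2 directed conditions differ. At day 12 all 9 genes were called higher in cone, where 10.1% of all genes were called and 5.98% were called higher. The cone libraries were all above the rod libraries for each of the 9, which held for 12.1% of all genes. The largest differences were in Cdkn2b at 3.39-fold (1.76 ± 0.29, adjusted p 0.000156), Cdkn2a at 3.15-fold (1.66 ± 0.34, adjusted p 0.0017) and Cdkn1a at 2.97-fold (1.57 ± 0.35, adjusted p 0.00361). Phlda3 differed by 1.29 ± 0.35 (adjusted p 0.0178), Ccng1 by 1.14 ± 0.25 (0.0031) and Bbc3 by 0.99 ± 0.28 (0.0202). Bax differed by 0.74 ± 0.23 (adjusted p 0.0423), Mdm2 by 0.70 ± 0.14 (0.00166) and Trp53inp1 by 0.67 ± 0.13 (0.00114). This count went from 9 to 0 when only the 6 day 12 libraries were fitted, with log2 fold changes from 0.65 to 1.75 and adjusted p from 0.0869 to 0.201, and the calls over all genes went from 1833 to 345. Leaving out 1 library gave 6 to 9 calls. The calls of Phlda3, Bbc3 and Bax were each lost without cone day 12 replicate 3, rod day 12 replicate 2 or rod day 12 replicate 3, and those of Bbc3 and Bax also without cone day 12 replicate 1.

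At day 35 there were 6 calls, all higher in cone (12.3% of all genes were called and 7.77% were called higher), and for 8 of the 9 genes, all but Bax, the libraries did not overlap, as for 16.3% of all genes. Called were Cdkn1a at 2.46-fold (1.30 ± 0.34, adjusted p 0.0115), Cdkn2a at 2.40-fold (1.27 ± 0.30, adjusted p 0.00488) and Cdkn2b at 1.99-fold (0.99 ± 0.27, adjusted p 0.0135). Bbc3 was 1.97-fold higher (0.98 ± 0.28, adjusted p 0.0186), Trp53inp1 1.68-fold (0.75 ± 0.13, adjusted p 0.000263) and Mdm2 1.53-fold (0.61 ± 0.14, adjusted p 0.00413). Not called were Phlda3 (0.70 ± 0.34, adjusted p 0.201), Ccng1 (0.59 ± 0.25, adjusted p 0.123) and Bax (0.45 ± 0.23, adjusted p 0.238). Leaving out 1 library gave 4 or 5 calls. Cdkn1a lost its call without rod day 35 replicate 1 (adjusted p 0.0757), Cdkn2b without rod day 35 replicate 1 (0.0628) or cone day 35 replicate 3 (0.0578), and Bbc3 without cone day 35 replicate 1 or 2 or rod day 35 replicate 2 or 3 (0.0529 to 0.0823). Mdm2 had an adjusted p of 0.0889 when only the day 35 libraries were fitted.

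**Figure D3:**
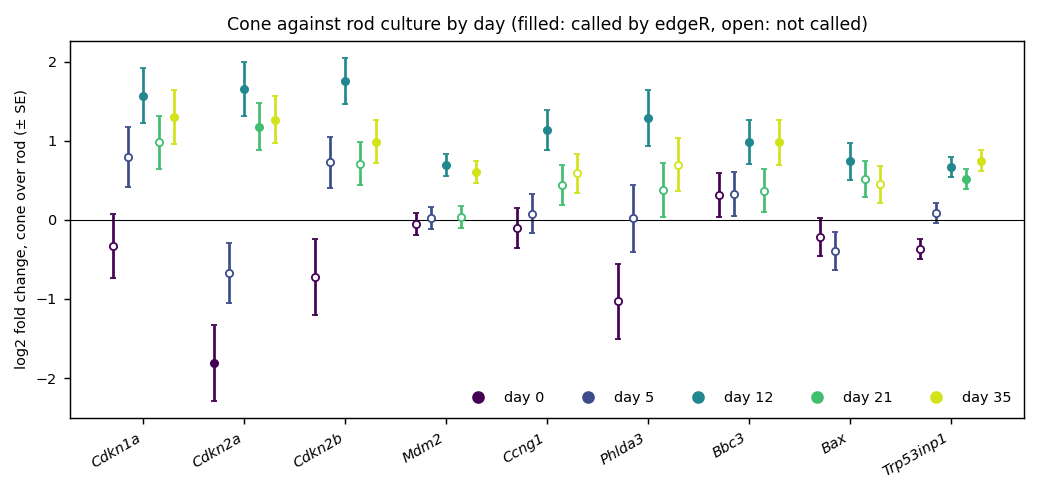
Log2 fold change of cone over rod (± SE, edgeR) for each gene at days 0, 5, 12, 21 and 35. Filled points were called at an adjusted p under 0.05. All 9 genes are filled and above 0 at day 12, and Cdkn2a is the only filled point below 0, at -1.81 on day 0.

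On the other days fewer of the genes were called. At day 0, 1 of 9 was called (7.27% of all genes), Cdkn2a, lower in cone primed than in rod primed cells at -1.81 ± 0.48 (adjusted p 0.0191). That call was lost without cone primed replicate 1 or 3 or rod primed replicate 2 or 3 (adjusted p 0.0532 to 0.0929). At day 5 edgeR called 0 of 9 (9.28% of all genes), 2 had an unadjusted p under 0.05, and DESeq2 and voom called 0. The day 5 values ran from -0.67 ± 0.38 in Cdkn2a to 0.80 ± 0.38 in Cdkn1a. At day 21 there were 2 calls (9.00% of all genes), Cdkn2a at 1.18 ± 0.30 (adjusted p 0.0141) and Trp53inp1 at 0.52 ± 0.13 (adjusted p 0.0114). Both were lost without cone day 21 replicate 1, rod day 21 replicate 2 or rod day 21 replicate 3 (adjusted p 0.0581 to 0.0836). Mdm2 differed by 0.04 ± 0.14 at day 21 (adjusted p 0.911). Over the mean of days 5 to 35 all 9 were called higher in cone (27.8% of all genes were called and 15.6% were called higher), from 0.33 ± 0.12 in Bax (adjusted p 0.0363) to 1.16 ± 0.18 in Cdkn1a (adjusted p 1.24e-05). Bax was the one that lost this call when single libraries were left out, with adjusted p up to 0.0781 without cone day 21 replicate 1.

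Whether the cone minus rod difference changed over days 0, 5, 12, 21 and 35 was asked with an F test on 4 degrees of freedom. It was called for 4 of 9 genes (9.22% of all genes), which were Cdkn2a (adjusted p 0.000454), Trp53inp1 (0.000758), Mdm2 (0.0192) and Cdkn2b (0.0378). Cdkn1a did not pass this F test (adjusted p 0.102). In Cdkn2a the log2 difference went from -1.81 at day 0 to 1.66 at day 12, and in Trp53inp1 from -0.37 ± 0.13 to 0.67. The difference in Mdm2 was -0.05 ± 0.14 in primed cells and 0.70, 0.04 and 0.61 on days 12, 21 and 35. Without rod day 12 replicate 1 the count was 8, all but Bbc3 by name, as Cdkn1a (adjusted p 0.0085), Ccng1 (0.00763), Phlda3 (0.00648) and Bax (0.0199) joined. Cdkn2b had adjusted p up to 0.0904, without rod primed replicate 3.

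Of the 9 genes, 0 were called after cone priming and 2 after rod priming. Between cone primed and untreated cells edgeR, DESeq2 and voom each called 0 of 9, with 0 at an unadjusted p under 0.05, and edgeR called 0 of all 18150 genes (0%). Between rod primed and untreated cells 2 of 9 were called higher (10.3% of all genes), Cdkn2a at 4.05-fold (2.02 ± 0.47, adjusted p 0.00584) and Trp53inp1 at 1.34-fold (0.43 ± 0.13, adjusted p 0.0369). Trp53inp1 lost its call without rod primed replicate 1 or 2 or any untreated replicate (adjusted p 0.0668 to 0.16), and Cdkn2a kept it in each case. The summed level of the 8 Muller glia markers was 949 to 1250 CPM in rod primed libraries and 379 to 438 CPM in untreated ones, and that of the 10 mesenchyme markers was 15.7, 25.2 and 105 CPM against 7.67 to 26.6 CPM. Of 11 proliferation genes 7 were higher in rod primed cells (6.71% of all genes were called higher), or 2 without rod primed replicate 3. The part of these genes and markers in the rise of Cdkn2a was not tested.

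A wider list of 24 other p53 targets gives the rest of the pathway. At day 35 against primed cells 19 of 24 rose and 1 fell in the cone culture, with a median log2 fold change of 1.52, and 13 rose and 2 fell in the rod culture, with a median of 0.98. Over all genes 31.1% rose and 26.5% fell in cone, 29.4% rose and 26.2% fell in rod, and the medians were 0.027 and 0.035. Pmaip1 (Noxa), a pro-apoptotic target, was at 0.252, 0.243 and 0.314 CPM in cone primed cells and at 122, 122 and 98.2 CPM in cone day 35, a log2 fold change of 8.68 ± 0.68 (adjusted p 2.60e-11) that rests on 8 counts in all in the primed libraries. Its rod value was 5.83 ± 0.55 (adjusted p 1.35e-09), with libraries at 36.7, 62.6 and 133 CPM. Ephx1, an epoxide hydrolase, rose by 7.81 ± 0.49 in cone (adjusted p 4.55e-13) and 5.47 ± 0.43 in rod (adjusted p 6.08e-11). The fall in cone was in Xpc, a DNA repair factor, by 0.39 on the log2 scale (adjusted p 0.00194), and the falls in rod were in Plk3 (-1.40 ± 0.23, adjusted p 7.80e-06) and Btg2 (-0.63 ± 0.17, adjusted p 0.00229), both known as early stress-response genes. Between cultures, 10 of 24 were higher and 1 lower in cone at day 12, and 7 were higher and 1 lower at day 35, against 5.98% of all genes called higher and 4.12% lower at day 12 and 7.77% and 4.51% at day 35. These became 1 higher at day 12 when only those libraries were fitted and 2 higher at day 35 without rod day 35 replicate 1.

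The p53 gene and its regulators were called in both directions. Of 13 tested, 3 rose and 4 fell in cone day 35 and 1 rose and 5 fell in rod day 35, with medians of -0.08 and -0.13. The 7 and 6 calls among 13 are near the share of all genes called, 57.7% in cone and 55.6% in rod. Trp53, which encodes p53, was at 20.6, 25.8 and 21.3 CPM in cone primed cells and 40.1, 36.0 and 34.3 CPM in cone day 35, a 1.63-fold rise (0.70 ± 0.16, adjusted p 0.000444). In the rod culture its libraries overlapped, from 27.3, 28.7 and 31.8 CPM to 28.2, 31.9 and 40.5 CPM (0.20 ± 0.16, adjusted p 0.293). Trp53 was 1.43-fold higher in cone than in rod at day 12 (0.52 ± 0.16, adjusted p 0.0345), and no gene of this list was called higher when only day 12 libraries were fitted. Mdm4, the partner of Mdm2, differed by 0.13 ± 0.12 in cone (adjusted p 0.362) and rose by 0.43 ± 0.12 in rod (adjusted p 0.00244). Chek2, a kinase of the DNA damage response, rose in cone (1.57 ± 0.31, adjusted p 9.07e-05). Ppm1d, the Wip1 phosphatase that dampens p53 and is itself a known p53 target, fell in both cultures, at -1.31 ± 0.18 (adjusted p 6.86e-07) and -1.41 ± 0.18 (adjusted p 3.21e-07), against the direction of the targets above. Trp53bp1, a DNA break adaptor, fell in both, at -1.03 in cone and -0.49 in rod (adjusted p 1.06e-09 and 0.000126), and Chek1 fell in rod (-1.23 ± 0.27, adjusted p 0.000459).

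None of the other cell cycle inhibitors was called higher at day 35. Among the 7 other inhibitors and Rb family genes 1 rose and 2 fell in cone and 1 rose and 5 fell in rod. That is 3 of 7 called in cone, where 57.7% of all genes were called, and 6 of 7 in rod, where 55.6% were. The rise was in Rbl2 (p130, the Rb relative of resting cells) in both cultures, at 0.47 ± 0.12 and 0.77 ± 0.12 (adjusted p 0.000952 and 2.94e-06). Cdkn1c (p57) fell in both, at -1.76 ± 0.35 in cone (adjusted p 0.000127) and -3.00 ± 0.35 in rod (adjusted p 4.99e-08), where rod primed libraries had been at 77.2, 79.5 and 222 CPM. Rbl1 (p107) changed by -0.86 in cone and -1.58 in rod (adjusted p 0.000937 and 4.19e-07).

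Regulators of the Cdkn2a locus included falls in Polycomb genes. Of 18 regulators, 4 rose and 11 fell in cone day 35 and 6 rose and 10 fell in rod day 35, with medians of -0.60 and -0.33. Over all genes 26.5% fell in cone and 26.2% in rod. Ezh2, the Polycomb methyltransferase, went from 166, 163 and 147 CPM in cone primed cells to 45.4, 30.6 and 39.7 CPM (-2.04 ± 0.14, adjusted p 1.38e-12). In rod cells it went from 221, 200 and 217 CPM to 43.5, 48.1 and 48.4 CPM (-2.19 ± 0.14, adjusted p 1.12e-12). Between cone and rod at day 35 the difference in Ezh2 did not pass the test (-0.27 ± 0.13, adjusted p 0.198). Cbx2, a Polycomb chromatin reader, fell as well, at -2.20 in cone and -1.89 in rod (adjusted p 3.12e-10 and 3.35e-09). The largest rises were in Hmga2, known to repress the Ink4a/Arf locus in young stem cells, at 5.46 ± 0.43 and 3.76 ± 0.40 (adjusted p 2.67e-11 and 1.01e-08), and Ets1, an activator of p16Ink4a, at 5.32 ± 0.44 and 4.88 ± 0.42 (adjusted p 7.74e-11 and 3.26e-10). The part of these regulators in the levels of Cdkn2a was not tested.

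Factors that senescent cells are known to secrete rose in all or most cases. Of the 17 of 23 that could be tested, 17 rose in cone day 35 and 14 in rod day 35, against 31.1% and 29.4% of all genes. Il6, Il1a, Il1b, Cxcl2, Cxcl5 and Ccl8 were too low to test. A gene at or near 0 in primed cells could be tested only through groups where it was higher, so these counts are a description. The median log2 fold change was 7.72 in cone and 4.21 in rod, or 6.13 and 3.83 when the 7 and 4 genes at 0 in primed cells were set against 3 counts per library. Icam1, an adhesion molecule shed by many cell types, was at least 219-fold higher in cone day 35, at 82.1, 42.8 and 79.8 CPM. In rod primed cells Icam1 had 5 counts in all, and it was at 18.8, 11.6 and 7.36 CPM in rod day 35 (adjusted p 3.64e-08). Igfbp7 rose by 7.99 ± 0.53 in cone and by 7.74 ± 0.57 in rod (adjusted p 1.15e-12 and 2.16e-11), from 15 and 8 counts in all in the primed libraries. Several of these genes are also expressed by mesenchyme, whose summed markers rose in both cultures by day 35 (below). Macrophages express some too, and their summed markers rose in the cone culture only. The part of those cells in the rise was not tested.

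Genes of dividing cells were mostly lower at day 35 than in primed cells, but rose from day 5 to day 12 in the cone culture. All 3 nuclear genes known to fall in senescence were lower at day 35 in both cultures. Lmnb1 (lamin B1) went from 209, 281 and 222 CPM in cone primed cells to 66.6, 35.3 and 47.9 CPM in cone day 35 (-2.25 ± 0.21, adjusted p 7.50e-10) and in rod cells by -2.40 ± 0.21 (adjusted p 4.05e-10). Hmgb2 changed by -2.61 in cone and -2.84 in rod (adjusted p 1.57e-11 and 9.50e-12). These genes also follow the cell cycle, and of 11 proliferation genes 8 fell in cone and 11 in rod, with none called higher in either, while 26.5% and 26.2% of all genes fell. In the cone culture 9 of the 11 were lower at day 5 than in primed cells (10.2% of all genes), or 2 without cone primed replicate 2 and 3 without cone day 5 replicate 1. From cone day 5 to day 12, the step in which all 9 p53 target and inhibitor genes rose, 9 of the 11 were called higher (24.6% of all genes), with a median log2 fold change of 0.83. That count was 1 without cone day 12 replicate 3 or cone day 5 replicate 1 and 5 without cone day 5 replicate 3. At cone day 12 1 of 11 was lower than in primed cells (21.7% of all genes), with 0 to 3 when 1 library was left out. Mki67, a marker of dividing cells, went from 331, 423 and 462 CPM at cone day 5 to 700, 737 and 1010 CPM at cone day 12, with no overlap. The part of dividing cells in the rise of the 9 genes was not tested. Mki67 was at 519, 765 and 446 CPM in cone primed cells and still at 312, 122 and 231 CPM in cone day 35 (-1.38 ± 0.30, adjusted p 0.000268), and in rod cells it went from 940, 896 and 1130 CPM to 218, 390 and 279 CPM (-1.74 ± 0.30, adjusted p 1.98e-05). At day 35 Mki67 differed between cone and rod by -0.42 ± 0.29 (adjusted p 0.411) and Lmnb1 by -0.34 ± 0.20 (adjusted p 0.315).

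**Figure D4:**
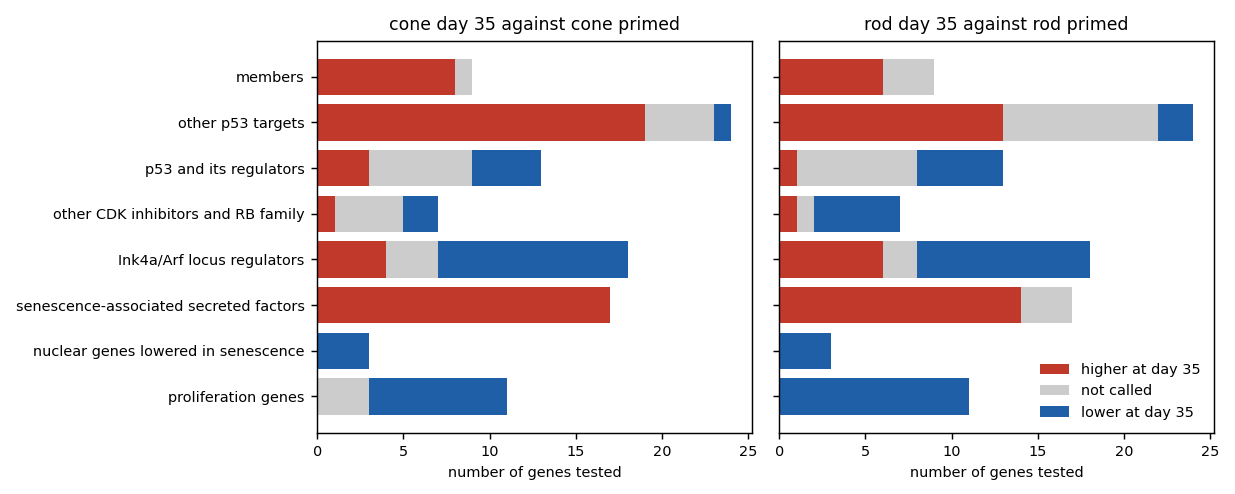
Number of tested genes in each list called higher (red), not called (grey) and called lower (blue) at day 35 against primed cells by edgeR, cone at left and rod at right. Of the 9 genes described here, labelled members, 8 and 6 were higher. Of 24 other p53 targets 19 and 13 were higher.

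Markers of other cell types moved in different directions by day 35. The summed levels of mesenchyme and Muller glia markers rose in both cultures and those of microglia and pigment epithelium in the cone culture, while that of endothelial markers fell. Of 10 mesenchyme and fibroblast markers, 10 rose in cone day 35 and 9 in rod day 35 against primed cells. Over all genes 31.1% were called higher in cone and 29.4% in rod. The summed level of these markers was 8.80 to 17.2 CPM in cone primed libraries, 338 to 427 CPM in cone day 12 and 3370, 647 and 4400 CPM in cone day 35. In rod cells it was 15.7 to 105 CPM when primed, 149 to 256 CPM at day 12 and 350 to 906 CPM at day 35. None of the 10 was at 0 in every library of a day 12 or day 35 group. Cone day 21 replicate 1, with the highest sum of its group at 815 CPM, and rod day 12 replicate 1, with the lowest sum of its group at 149 CPM, were each the highest library of their group for all 9 genes. Cone day 35 replicate 2, with the lowest sum of its group at 647 CPM, had Cdkn1a at 144 CPM, between the 148 and 123 CPM of the other two. The 10 microglia and macrophage markers summed to 4.87 to 28.9 CPM in cone day 12 and 0.928 to 17.1 CPM in rod day 12, which overlap. In primed cells they had summed to 1.05 to 2.99 CPM in cone and 0.302 to 5.84 CPM in rod. At day 35 they summed to 20.8 to 110 CPM in cone and 1.81 to 3.8 CPM in rod. P2ry12 and Aif1 were too low to test. The 8 that could be tested were all higher in cone at day 35, where 7.77% of all genes were called higher. Genes as low as these in rod could be tested only through groups where they were higher, so this count is a description. Of the 8 Muller glia markers, 7 rose in cone day 35, and 6 rose and 1 fell in rod day 35. The shares of all genes called higher were 31.1% in cone and 29.4% in rod, and 26.2% were called lower in rod. Their summed level was 381 to 527 CPM in cone primed libraries, 1600 to 1970 CPM in cone day 12 and 2910 to 3390 CPM in cone day 35. In the rod culture it was 2200 to 2890 CPM at day 12 and 3810 to 5310 CPM at day 35, above all cone libraries of the same day. Of the 5 endothelial markers, Cdh5, Cldn5 and Tie1 were too low to test, so the sum rests mainly on Pecam1 and Kdr. The 5 markers summed to a mean of 345 CPM in cone primed and 177 CPM in cone day 35 libraries, and 301 and 69.8 CPM in rod. The 6 pigment epithelium markers, of which Rpe65, Tyr and Pmel were too low to test, summed to 5.74 to 37.9 CPM across all libraries. Their sum was 5.74 to 19.9 CPM in cone primed and 25.0 to 37.6 CPM in cone day 35 libraries. In rod it was 9.16 to 20.9 CPM when primed and 10.8 to 13.2 CPM at day 35. At days 5, 12, 21 and 35 every cone library was above every rod library of the same day. The part of these cell types in the rise of the 9 genes and in the cone and rod difference was not tested.

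**Figure D5:**
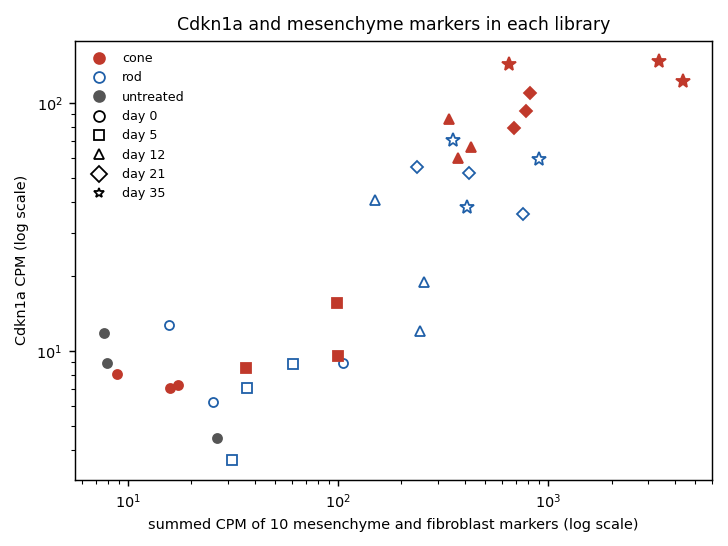
Cdkn1a level in CPM against the summed CPM of 10 mesenchyme and fibroblast markers in each of the 33 libraries, both on log axes, with colour for culture and symbol for day. Day 12, 21 and 35 libraries lie to the right of all libraries of days 0 and 5 on the marker axis. Cone day 35 replicate 2 sits at 647 CPM of markers and 144 CPM of Cdkn1a.

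Across the 11 group means of log2 CPM, the 6 genes Cdkn1a, Cdkn2a, Cdkn2b, Mdm2, Ccng1 and Phlda3 had close profiles, with Pearson r from 0.93 (Cdkn2a with Ccng1) to 0.99 (Cdkn1a with Ccng1). Bbc3 was apart, with r from 0.223 with Cdkn2b to 0.682 with Bax. These groups share the day course, so r is a description over 11 points. By the same measure the genes most like Cdkn1a were Mrps6 (0.995), Susd6 (0.994) and Polk (0.992), those most like Cdkn2a were Cnpy4 (0.990), Ifi30 (0.989) and Tor1b (0.988), and those most like Cdkn2b were Tgfb1 (0.996), Serpinf1 (0.994) and Mvp (0.994). Polk, a translesion DNA polymerase and one of the 24 other p53 targets, was also among the 3 most like Mdm2 (0.988), after Slc19a2 (0.989) and before Vmp1 (0.986), and the most like Ccng1 (0.993), with Ano3 (0.993) and Cttn (0.992). Phlda3 was most like Tmem184b (0.997), Mafk (0.995) and Evc2 (0.994). Trp53inp1 was most like Wdr81 (0.961), Csrp2bp (0.961) and Commd3 (0.960), Bax most like Gnas (0.982), Psmc3 (0.975) and Txnl1 (0.975), and Bbc3 most like Plekhh3 (0.933), Runx2 (0.928) and Plxna1 (0.925), the lowest values of the 9.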

How the data were processed

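RNA from 33 libraries in 11 groups of 3 was sequenced after preparation with a Takara low input kit, per the labels' protocols. The submitters' processing notes name HISAT2, StringTie, HTSeq and GRCm38, with no roles, versions or strand setting. The authors deposited whole-number read counts per gene, with 5 summary lines per table that were left out here, so that counts in genes were 26.9% to 34.9% of all counted reads. The authors' TPM values are per file headers in a table of each library, and TPM was used in 1 alternative only. FPKM and per-base coverage values were also deposited by the authors and were not used. Gene symbols came from the deposited tables.

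Counts were filtered with filterByExpr (minimum count 10), which kept 18150 of 32488 genes with any count, scaled by TMM and fitted in edgeR 4.0.16 (R 4.3.3) by quasi-likelihood with all 11 groups in 1 model. P-values were adjusted by Benjamini-Hochberg over all genes tested, and a gene was called at an adjusted p under 0.05. The common biological coefficient of variation was 0.213. Values in the text are log2 fold changes ± SE, or CPM means ± SD. Alternatives were DESeq2 1.42.0, limma 3.58.1 (voom with quality weights, and log2(TPM + 1)), other scaling and filters, fitting only the libraries compared, a replicate block and leaving out each library. Counts were also simulated for cone against rod day 12 on 17614 genes. The fit recovered 44% of 100 genes changed 2-fold and 75% of 100 changed 4-fold, all in the right direction. It also made 5 calls among unchanged genes. Each simulated gene had the same relative spread in every group, so a group of wider spread was not covered. Python 3.11.15, numpy 2.4.6, pandas 2.3.3 and matplotlib 3.10.9 were used for tables and plots.

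The 9 genes and all lists were chosen with earlier results of these data known. Named from each list were the 2 called genes with the largest rise and the 2 with the largest fall at day 35 in each culture (mean log2 CPM of at least 1), and always Trp53, Mdm4, Mki67 and Lmnb1. A gene that this rule would name is not reported here. The 3 genes most like each gene were taken by Pearson r of group means, passing over symbols of the Gm and Rik kind.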

Additional observations from a re-analysis of the deposited data

Results flagged for a closer look

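The difference between the cone and rod cultures changed over days 0, 5, 12, 21 and 35 for 4 of the 9 genes, by edgeR's quasi-likelihood F test with Benjamini-Hochberg adjustment. Cdkn2a had an adjusted p of 0.000454, and its cone minus rod log2 differences on those 5 days were -1.81, -0.67, 1.66, 1.18 and 1.27. Trp53inp1 had an adjusted p of 0.000758, with differences of -0.37, 0.09, 0.67, 0.52 and 0.75 on those days. Mdm2 had an adjusted p of 0.0192, with differences of -0.05, 0.02, 0.70, 0.04 and 0.61. Cdkn2b had an adjusted p of 0.0378, with differences of -0.72, 0.73, 1.76, 0.71 and 0.99. Groups held 3 libraries each, too few to test whether a single library stands apart.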

How the results depend on the processing

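The counts of 8 genes called at cone day 35 and 6 at rod day 35 against primed cells were the same under DESeq2, RLE size factors, both other filters, voom, the replicate block, the fit of compared libraries alone and each library left out. They differed only with TPM. In the deposited TPM, 23.3% to 37.3% of genes with over 50 counts were listed at 0, as was Cdkn2a in 32 of 33 libraries, Bax in 21, Phlda3 in 15, Bbc3 in 14, Cdkn1a in 8 and Mdm2 in 4, although none had a count of 0. With limma on log2(TPM + 1), counts of called genes were 3 for cone days 12, 21 and 35 against primed, 2 for rod day 21, 1 for each culture from day 5 to 12, and 0 for the other comparisons.

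The TPM values also reversed some directions. Between cone and rod these were Cdkn2b (-1.41), Bbc3 (-0.06) and Bax (0.38) at day 5, Bbc3 (-0.41) and Trp53inp1 (-0.01) at day 12, Cdkn2b (-0.50), Mdm2 (-0.90) and Trp53inp1 (-0.35) at day 21, Mdm2 (-0.15) and Bax (-1.43) at day 35, and Cdkn2b (-0.40) and Bax (-0.20) over the mean of days 5 to 35. In the cone culture they were Mdm2 (-0.17) and Trp53inp1 (-0.17) at day 21 and Bbc3 (-0.31), Trp53 (-1.39), Trp53bp1 (0.23) and Rbl2 (-0.94) at day 35 against primed, Bbc3 (-0.17), Bax (-0.81) and Trp53inp1 (-0.63) from day 5 to 12, and Trp53inp1 (-0.26) from day 12 to 21. In the rod culture they were Trp53inp1 at day 5 (0.22), Cdkn2b (-0.10), Trp53bp1 (0.31) and Mdm4 (-0.02) at day 35, and Cdkn2b from day 5 to 12 (-0.38) and from day 12 to 21 (-0.66). Under voom, Phlda3 at day 5 (-0.05) and Mdm2 at day 21 (-0.10) reversed.

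When only the libraries compared were fitted, counts went from 9 to 0 for cone against rod at day 12, from 4 to 0 and 6 to 0 for the rod steps from day 5 to 12 and from 12 to 21, from 2 to 0 for cone day 12 to 21, from 5 to 3 for rod day 12 against primed, and from 1 to 3 for cone day 5 against primed. Each such fit estimates the spread from fewer libraries. The counts against primed cells nevertheless stayed at 8 for cone day 35 and 6 for rod day 35. All the falls listed here except cone day 12 to 21 involved rod day 12, where Cdkn1a was at 40.6, 12.1 and 19.0 CPM. Why these counts changed was not tested. Voom gave 2 at day 0 and 4 at day 21 between cultures, 3 at cone day 5, 4 for cone day 21 to 35, 8 at rod day 12 and 8 for the change with day. DESeq2 gave 2 at cone day 5 and 8 for the change with day. Cone day 12 to 21 had 1 call with RLE size factors, with a filter at a mean of 1 CPM and with no filter, and rod primed against untreated had 1 with no filter.

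Over all genes, voom called 3200, 3371, 4146 and 3699 between cultures on days 0, 5, 12 and 21, against 1320, 1685, 1833 and 1633. The compared libraries alone gave 345 at day 12 and 1454 at day 35 (2229 in the full fit), and 914 of 3318, 1 of 2027 and 4 of 280 for the rod steps.

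Leaving out 1 library gave 0 to 1 calls at day 0, 0 to 2 at day 21, 1 to 2 at cone day 5, 0 to 2 for cone day 12 to 21, 1 to 2 for rod primed against untreated, 1 to 2 at rod day 5, 2 to 5 for rod day 5 to 12 and 3 to 8 for the change with day. It reversed values near 0, which ran from -0.03 to 0.09 in Mdm2, -0.32 to 0.34 in Phlda3 and -0.04 to 0.67 in Bbc3 for cone against rod at day 5, from -0.06 to 0.13 in Mdm2 at day 21, and at rod day 35 from -0.01 to 0.24 in Bax and -0.10 to 0.06 in Trp53inp1.

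The labels do not say whether replicate numbers pair the libraries, and correlations between libraries cannot show how cultures were matched. Same-numbered libraries had a median correlation of 0.016 in their deviations from group means, against -0.011 for different numbers. Over 0.1 were 48 of 165 same-numbered pairs (highest 0.513) and 71 of 330 different-numbered pairs (highest 0.464). With the replicate block the count at rod day 5 was 2 in place of 1. Depth limits Cdkn2a and Cdkn2b at day 0 most, with 1 to 18 and 4 to 13 counts per library.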
